A study of Rattus norvegicus with 88 samples.

Results

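The miR-17-92 and miR-106b-25 clusters are related groups of miRNA genes, each transcribed as a single primary RNA from which several miRNAs are cut. Their 9 members on the array were taken by name, 6 of miR-17-92 (rno-miR-17-5p, rno-miR-18a, rno-miR-19a, rno-miR-20a, rno-miR-19b and rno-miR-92a) and 3 of miR-106b-25 (rno-miR-106b, rno-miR-93 and rno-miR-25), out of 677 miRNAs of which 314 were detected on at least 1 array. Liver tissue of untreated Fischer 344 rats, 45 females and 43 males, was profiled on 88 single-color arrays. Each array held the RNA of a piece of liver from 1 animal. The sex of an animal was taken from the label of its own sample, since the husbandry text of the record names only females and is the same for all samples. The ages were 2 weeks, then 5, 6 and 8, then 15 and 21, and at last 52, 78 and 104 weeks, with 5 animals of each sex at each age except for 4 males at 5 and at 104 weeks. Following the division used in the study, 2-week-old rats were called young (5 females and 5 males), rats of 5 to 21 weeks adult (25 females and 24 males) and rats of 52 to 104 weeks old (15 females and 14 males). A level is the normalized intensity of a miRNA, its total signal divided by the 75th percentile of the 314 expressed miRNAs of the same array, and all differences are given on the log2 scale of that value.

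The miR-17-92 transcript is switched on by Myc and E2F factors in dividing cells, and its products lower brakes on the cell cycle and on survival such as Cdkn1a and Bcl2l11 (Bim). The miR-106b-25 miRNAs lie inside a host gene, Mcm7, which encodes a subunit of the helicase that opens DNA for replication, so that host and miRNAs are made together in cycling cells. Both clusters are best known from embryonic growth and from tumors, hepatocellular carcinoma included, while hepatocytes of the adult liver seldom divide.

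The mature sequences show why the clusters are treated together, since the seed, the stretch of bases 2 to 8 that pairs with target mRNAs, recurs between them. They are RefSeq sequences on build GRCr8, written 5′ to 3′ with the seed in capitals, in the order of the transcripts. On chromosome 15 the 6 hairpins of miR-17-92 lay within 785 bases of the plus strand (chr15:98587848-98588632), outside any other gene of the RefSeq table used. On chromosome 12 the 3 hairpins of miR-106b-25 lay within 494 bases of the minus strand (chr12:22156641-22157134), inside Mcm7 (chr12:22155921-22163320).
rno-miR-17-5p: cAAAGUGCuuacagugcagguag
rno-miR-18a: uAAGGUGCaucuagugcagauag
rno-miR-19a: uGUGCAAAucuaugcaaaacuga
rno-miR-20a: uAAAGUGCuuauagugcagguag
rno-miR-19b: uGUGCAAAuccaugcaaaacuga
rno-miR-92a: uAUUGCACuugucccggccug
rno-miR-106b: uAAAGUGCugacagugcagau
rno-miR-93: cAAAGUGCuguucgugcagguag
rno-miR-25: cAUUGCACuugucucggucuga

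The seed AAAGUGC was held by 4 members, miR-17-5p and miR-20a of the first cluster and miR-106b and miR-93 of the second, and these are the members known for repressing Cdkn1a. The seed AUUGCAC was shared by miR-92a and miR-25, known for repressing Bcl2l11, the seed GUGCAAA by miR-19a and miR-19b, and miR-18a stood alone with AAGGUGC. Aligned from the 5′ end, miR-19a and miR-19b differed at 1 of 23 bases, miR-17-5p and miR-20a at 2 of 23, and miR-92a and miR-25 at 3 of 21. Cross-hybridization between such close sequences was not tested. The mature miR-17-5p, miR-19b and miR-92a are also encoded by the miR-106a-363 cluster of the X chromosome (chrX:137342777-137343647, minus strand), so for these members the array cannot tell the clusters apart. A further product of that cluster, miR-20b-5p, carries the AAAGUGC seed and differed from miR-20a at 2 bases.
rno-miR-20b-5p: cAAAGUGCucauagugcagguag

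Of the 9 members, 8 were detected on all 88 arrays and miR-18a on 82. The 6 arrays without miR-18a were all of males, 5 of them from scan 2 of the 5 scanning sessions, and held 138 to 154 detected miRNAs against a median of 175.5 over all arrays. The hepatocyte markers miR-122, miR-192 and miR-194 were detected on all arrays. A pair of 104-week female arrays, replicates 1 and 8, stood farthest from the rest of their group over the miRNAs detected everywhere, with a median absolute deviation of 0.398 and 0.380 log2 units against a median of 0.102 over the 88 arrays. On these 2 arrays miR-122 was at 655 and 681, against 985 to 1146 on the other 3 of the group, and the leukocyte marker miR-142-3p was at 13.9 and 22.2, against 6.49 to 7.45. Results on old females are therefore also given without them, a setting chosen after the data were seen. Each replicate is a separate animal, and the number of arrays limits the precision. In a homogenate of a piece of liver fewer cells of a type and less RNA per cell cannot be told apart.

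With the scaling as used, the 18 group means of the 8 members detected everywhere spanned 0.51 (miR-20a) to 0.90 (miR-19a) log2 units, while the median span of the miRNAs detected on every array was 1.40. These spans depended on the scaling. A percentile of the miRNAs detected everywhere gave 0.98 (miR-25) to 1.82 (miR-17-5p) against a median of 1.14, and a percentile of all miRNAs gave 1.38 (miR-17-5p) to 2.34 (miR-25) against 2.74. For miR-18a, known for repressing Esr1 and Ctgf, the span was 1.67 units, from 2-week to 78-week females, over the 13 groups in which every array detected it, and the other 5 groups hold arrays at the floor. Over the same 13 groups it was 2.95, from 2-week males, with a percentile of the miRNAs detected everywhere. With a percentile of all miRNAs it was 1.58, from 5-week males. By the F test over the 9 ages with at least 1 contrast of 1.5-fold (limma, adjusted p under 0.05), 5 members changed with age in females (miR-17-5p, miR-18a, miR-19a, miR-19b and miR-92a), beside 57.3% of the 314 expressed miRNAs. In males 6 did (miR-17-5p, miR-18a, miR-92a and the 3 members of miR-106b-25), beside 54.1%. From 5 weeks on, without the 2-week-old rats, 4 members still passed in females (miR-18a, miR-19a, miR-19b and miR-92a) beside 22.9% of miRNAs, and 3 in males (miR-17-5p, miR-92a and miR-93) beside 18.8%. These counts from 5 weeks on rest on the scaling, since a percentile of the miRNAs detected everywhere gave 9 and 8, and a percentile of all miRNAs gave 0 and 0. With the scaling as used, the 5 and 6 of 9 over the whole life span are close to the shares of all miRNAs. Other settings gave 9 in females (percentile of the miRNAs detected everywhere) and 0 (normexp correction) or 3 (without scan 3) in males.

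**Figure D1:**
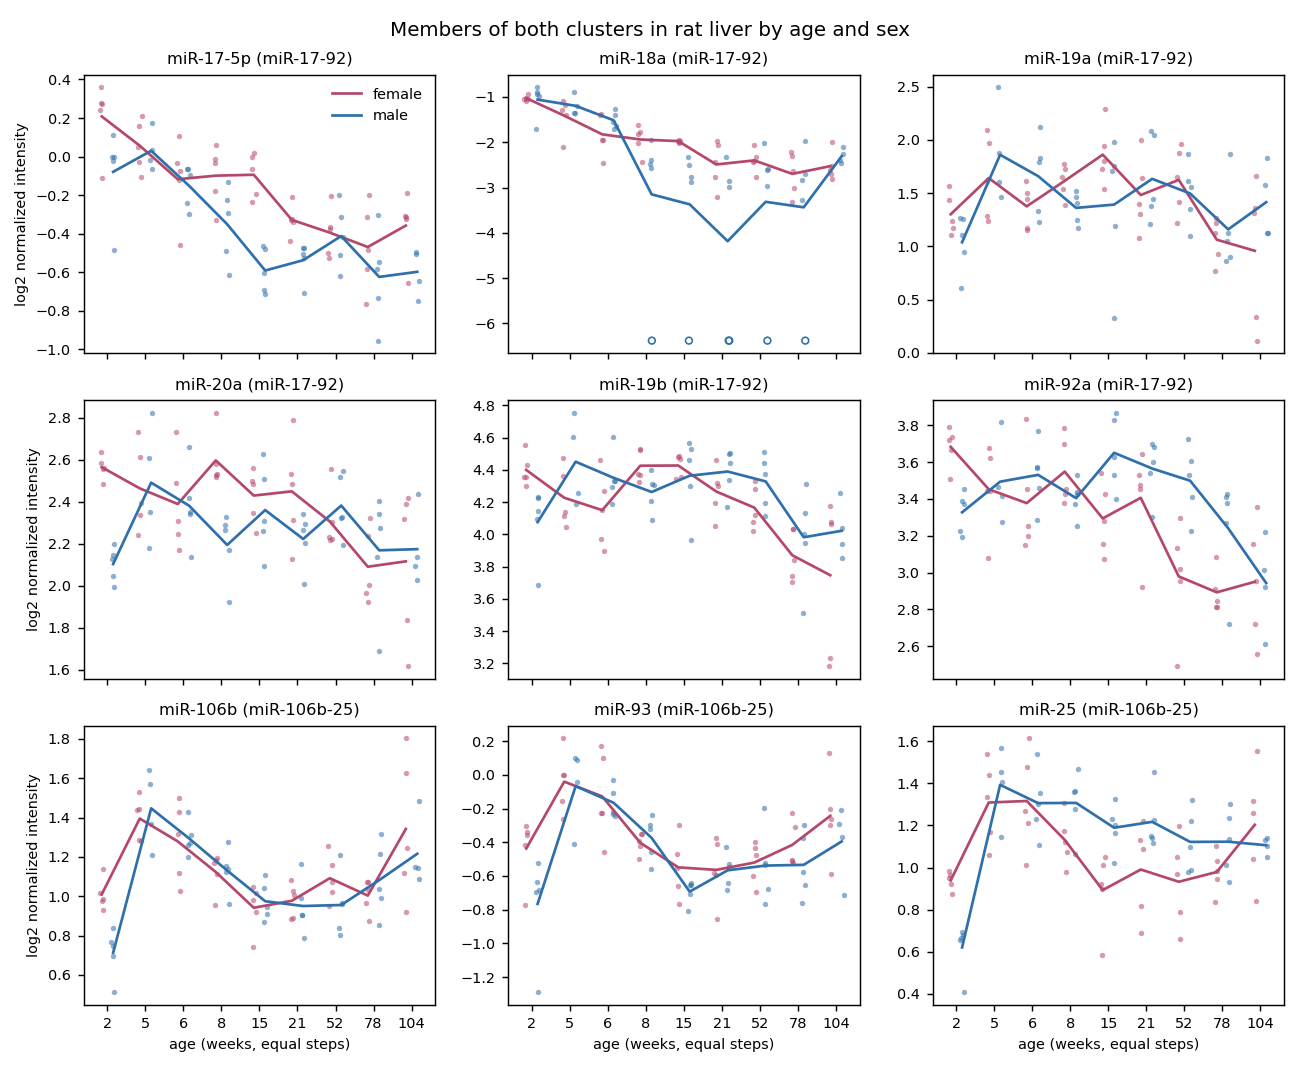
Normalized intensity (log2, y axis) of each of the 9 members against age in weeks (x axis), with 1 point per array, females and males in separate colors, lines through the group means, and open circles where miR-18a was not detected. With the scaling as used, the miR-106b-25 members were highest around 5 weeks, miR-18a was highest at 2 weeks, and miR-92a, miR-19a and miR-19b were lowest among the oldest groups of females.

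Within miR-17-92 the widest contrasts between ages were those of miR-18a. In females miR-18a was at 0.467, 0.483, 0.485, 0.494 and 0.526 at 2 weeks and at 0.1001, 0.123, 0.162, 0.201 and 0.215 at 78 weeks. The groups did not overlap, and the difference was -1.67 ± 0.22 (SE) log2 units (3.19-fold, limma adjusted p = 3.2e-08). Female miR-18a passed the test with 1.5-fold in 15 of the 36 pairs of ages, more than any other member in either sex, and from 5 weeks on in 6 pairs. Male miR-18a was at 0.307, 0.506, 0.522, 0.539 and 0.580 at 2 weeks, and at 21 weeks it was not detected on 2 arrays and was at 0.126, 0.139 and 0.198 on the other 3.

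For miR-92a the females of 8 weeks were at 10.4, 10.75, 10.9, 13 and 13.8 and those of 78 weeks at 7.03, 7.04, 7.18, 7.51 and 8.47. All 5 of the older group were below all 5 of the younger, a difference of -0.66 ± 0.15 log2 units (1.57-fold, limma adjusted p = 0.00324). In males each pair of ages that passed ended at 104 weeks, as with 10.5, 11.6, 12.3, 14.2 and 14.6 at 15 weeks and 6.11, 7.59, 8.09 and 9.32 at 104 weeks. Here too the groups did not overlap (-0.71 ± 0.13, 1.63-fold, limma adjusted p = 0.000579). In females miR-19b stood at 20.3, 20.5, 22.1, 22.3 and 22.4 at 15 weeks and at 9.07, 9.42, 16.7, 16.9 and 18.1 at 104 weeks (-0.68 ± 0.14, limma adjusted p = 0.00202), where the lowest 2 values were those of the 2 arrays that stood apart. Male miR-17-5p was at 0.955, 0.986, 1.02 and 1.13 at 5 weeks and at 0.611, 0.618, 0.658, 0.716 and 0.724 at 15 weeks, again with no overlap (-0.62 ± 0.11, limma adjusted p = 6.19e-05).

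With the scaling as used, the 3 members of miR-106b-25 had their highest group means at 5 or 6 weeks in both sexes. In males the highest mean was at 2 weeks with a percentile of the miRNAs detected everywhere and at 8 weeks with one of all miRNAs. In females it stayed at 5 or 6 weeks, except that miR-106b was highest at 104 weeks with the percentile of all miRNAs. Male miR-25 was at 1.33, 1.57, 1.59, 1.60 and 1.62 at 2 weeks and at 2.21, 2.65, 2.74 and 2.96 at 5 weeks. The 5-week males were all higher, by 0.77 ± 0.09 log2 units (1.71-fold, limma adjusted p = 6.17e-09), and miR-106b (0.73 ± 0.10) and miR-93 (0.70 ± 0.12) rose over the same step. With the percentile over the miRNAs detected on every array this step turned to -0.10 for miR-25, -0.13 for miR-106b and -0.17 for miR-93, and none of the 3 passed. By 15 weeks male miR-93 had fallen by 0.63 ± 0.12 from the 5-week level (limma adjusted p = 0.000277), from 0.752, 0.970, 1.06 and 1.07 to 0.572, 0.613, 0.634, 0.635 and 0.641. In females the mean log2 level of miR-106b was 1.01 ± 0.08 (SD, n = 5) at 2 weeks, 1.40 ± 0.11 at 5 weeks and 0.94 ± 0.12 at 15 weeks. The F test over the ages from 5 weeks on passed for miR-106b and miR-93 in both sexes (limma adjusted p between 0.000375 and 0.00291) although the only pair of ages to pass with 1.5-fold was that of 5 and 15 weeks for male miR-93. For miR-25 it passed in females (limma adjusted p = 0.0220) and not in males (limma adjusted p = 0.142). Between neighboring ages, the only steps that passed with 1.5-fold were those from 2 to 5 weeks in males, for miR-19a (0.82, and -0.05 with that other percentile) and the 3 members of miR-106b-25, and the male F test itself did not pass for miR-19a (limma adjusted p = 0.132).

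The comparison of young with adult rats asked which miRNAs mark the growing liver. In females 3 members, all of miR-17-92, were lower in adults (miR-18a, miR-17-5p and miR-92a) beside 19.7% of the expressed miRNAs, and none was higher beside 31.5%. The drop of miR-18a was the only one to reach 1.5-fold, which 39.8% of the miRNAs did with an adjusted p under 0.05. Adult females had a median miR-18a level of 0.256 (0.108 to 0.466), and each of the 5 young values given above lay above the highest adult (-0.90 ± 0.21, limma adjusted p = 0.000262). For miR-17-5p the young females were at 0.926, 1.18, 1.21, 1.21 and 1.28 and the adults at a median of 0.950 (0.727 to 1.16), so that 4 of 5 exceeded the highest adult (-0.32 ± 0.09, limma adjusted p = 0.00156). Young females had miR-92a at 11.4, 12.7, 13.2, 13.3 and 13.8, within the upper range of the adults (7.58 to 14.3), and this call (-0.27 ± 0.11, limma adjusted p = 0.0420) was lost when any 1 of 10 arrays was left out, with adjusted p between 0.05003 and 0.110.

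In males 5 members were higher in adults than at 2 weeks, beside 34.4% of the miRNAs, and none was lower beside 22.0%. They were miR-25, miR-106b and miR-93 together with miR-19a and miR-19b. Only miR-25 reached 1.5-fold, against 49.7% of all miRNAs, with a median of 2.39 in adults (2.03 to 2.96) above all 5 young males (0.66 ± 0.07, 1.58-fold, limma adjusted p = 2.48e-11). The rises of miR-106b (0.43 ± 0.10), miR-93 (0.38 ± 0.12), miR-19a (0.53 ± 0.20) and miR-19b (0.28 ± 0.11) were smaller. Without 2-week male replicate 3, whose levels were the lowest of its group for all of these but miR-106b, the count was 3, and miR-19a (0.42, limma adjusted p = 0.0955), miR-19b (0.19, 0.175) and miR-93 (0.25, 0.0988) no longer passed. The third of these calls was then that of miR-17-5p, which passed as lower in adults (-0.36, limma adjusted p = 0.0126). For miR-18a the male difference was -1.69 ± 0.77 and missed the threshold (limma adjusted p = 0.0592), with the 4 undetected adult arrays at the floor.

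These directions are relative to the scaling. With the values as used, the median of all miRNAs detected on every array was itself 0.52 higher in adult than in young females and 0.99 higher in males. The young arrays held a median of 222.5 detected miRNAs against 171 in adults, and the part of that number in the shift was not tested. When the percentile was taken over the miRNAs detected on every array, those medians were -0.14 and -0.13, all 9 members were lower in adults in both sexes, and the rises turned into drops, as for male miR-25 (-0.46, limma adjusted p = 0.000759) and miR-106b (-0.68, limma adjusted p = 0.000281). When it covered every miRNA on the array, the drops of miR-17-5p and miR-92a in females turned to 0.44 and 0.50 without passing, and no member passed as lower in adult females while 4 passed as higher, miR-19a (1.06, limma adjusted p = 0.0130), miR-25 (0.96, 0.0229), miR-106b (0.90, 0.0257) and miR-93 (0.87, 0.0371). The sign of miR-18a stayed negative in both sexes under each setting that kept it, but with every miRNA behind the percentile its difference was -0.13 in females (limma adjusted p = 0.887) and -0.75 in males (limma adjusted p = 0.645), so that the female call was lost. Set against the other 95 miRNAs detected everywhere, whose median difference was 0.57 in females and 1.03 in males, all 9 members lay below that median in both sexes. With the scaling as used, the hepatocyte markers miR-122, miR-192 and miR-194 rose in both sexes over the same step, as did the 5 leukocyte and the 2 erythroid markers tested (miR-122 by 0.61 in females and 1.19 in males). With a percentile of the miRNAs detected everywhere, miR-122 was at -0.05 and 0.07, and of these markers miR-192 passed as higher in both sexes, miR-142-5p as higher in females and miR-223 as lower in males. The summed hepatocyte level ran from 560 to 674 in young and from 653 to 1289 in adult females, the leukocyte level from 6.45 to 8.26 and from 9.25 to 19.8, and the erythroid level from 3.29 to 5.64 and from 4.17 to 19.1. In males the hepatocyte level went from 399 to 429 in young and from 634 to 1272 in adults, the leukocyte level from 4.999 to 8.16 and from 11.6 to 18.6, and the erythroid level from 3.18 to 6.26 and from 7.14 to 21.1. Of the 5 biliary markers, miR-200a (-0.73, limma adjusted p = 0.0268) and miR-200b (-1.39, limma adjusted p = 0.00342) were lower in adult females, with a summed level of 3.25 to 4.20 in young and 0.534 to 4.22 in adults, and none passed in males. Of the 4 markers of endothelium and mesenchyme, 1 was higher in adult females (miR-143 by 0.43) and 3 in adult males (miR-126, miR-126* and miR-143, by 0.35 to 0.73). Of the 5 muscle markers, miR-499 was higher in adult females (1.93, limma adjusted p = 0.0212). It was detected on 53 of the 88 arrays, 4 of the 10 young ones among them, with undetected arrays at the floor. The part of cell composition in the members' differences was not tested.

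**Figure D2:**
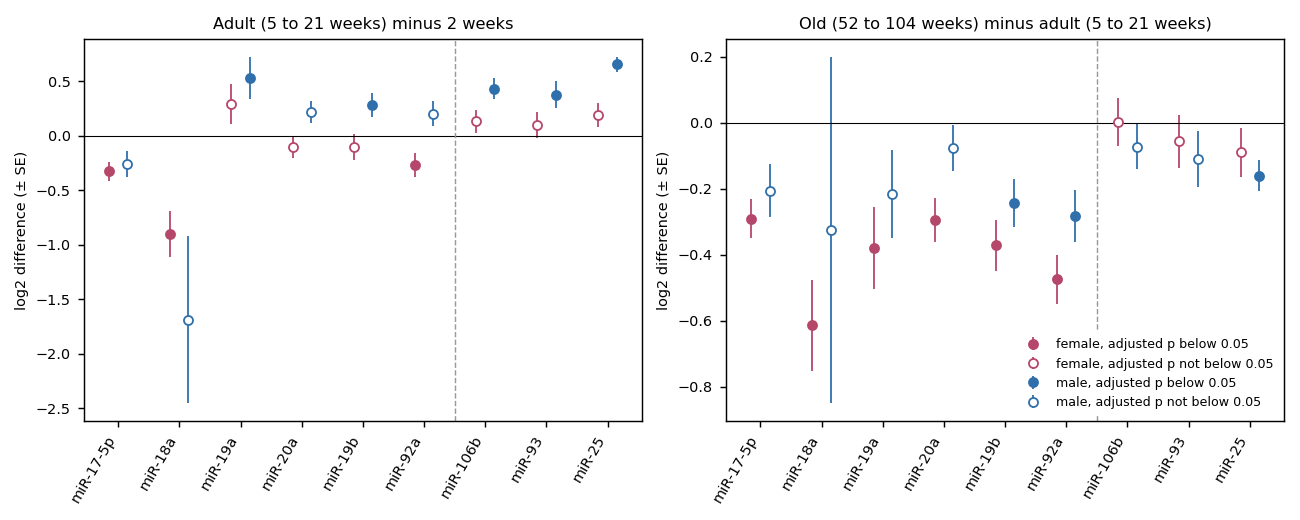
Log2 difference with its standard error (y axis) for each member (x axis), adult minus 2 weeks and old minus adult, in females and males, with filled points where the limma adjusted p was below 0.05. In old females the 6 miR-17-92 members lie below 0 and the 3 miR-106b-25 members near it, while the directions of the differences from 2 weeks to adult, other than that of miR-18a, turn under another percentile.

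In females all 6 members of miR-17-92 were lower in the old than in the adult class, beside 5.41% of the 314 expressed miRNAs. The 3 members of miR-106b-25 did not pass, with differences of 0.00 for miR-106b, -0.06 for miR-93 and -0.09 for miR-25. None of the 9 was higher, beside 4.14%. With 1.5-fold as well, miR-18a alone passed, beside 4.46%. The median difference of the miR-17-92 members was -0.38 and that of the miR-106b-25 members -0.06, against 0.07 for the other 95 miRNAs detected everywhere. The difference between the clusters was not tested. For miR-18a and miR-17-5p the females were already near the old level at 21 weeks. Female miR-18a had a mean of 0.386 at 5 weeks and 0.187 at 21 weeks. At 52, 78 and 104 weeks it was 0.191, 0.160 and 0.177. The means of miR-17-5p at these 5 ages were 1.04, 0.797, 0.763, 0.729 and 0.785. For miR-92a, miR-20a and miR-19b the 21-week mean lay above those of all 3 old ages. For miR-19a it lay below the 52-week mean and above the later ones.

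The largest share of separated animals was seen for miR-92a. In adult females it ranged from 7.58 to 14.3 with a median of 10.9, and in old females from 5.62 to 10.3 with a median of 7.76. All 15 old females were below the adult median and 7 were below the lowest adult (-0.47 ± 0.07, 1.39-fold, limma adjusted p = 8.21e-06). For miR-19b the adult females lay between 14.9 and 23.1 (median 20.3) and the old between 9.07 and 20.1 (median 16.4). Again 15 of 15 were below the adult median, and 5 below the lowest adult (-0.37 ± 0.08, limma adjusted p = 0.000723). For miR-17-5p the adult median was 0.950 and the old median 0.777 (0.589 to 0.877), with 15 of 15 below the adult median and 6 below the lowest adult (-0.29 ± 0.06, limma adjusted p = 0.00042).

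For miR-20a, with the same seed as miR-17-5p, the adult females lay between 4.37 and 7.08 (median 5.61) and the old between 3.07 and 5.88 (median 4.70). The ranges overlapped, with 14 of 15 old females below the adult median (-0.30 ± 0.07, limma adjusted p = 0.00168). The level of miR-18a was low in both classes, with a median of 0.256 in adults and 0.174 in old females (0.1001 to 0.251). All 15 old females were below the adult median (-0.61 ± 0.14, 1.53-fold, limma adjusted p = 0.00168). The call nearest the threshold was that of miR-19a (-0.38 ± 0.12, limma adjusted p = 0.0416), with 11 of 15 below the adult median of 3.06, and it was lost when any 1 of 18 arrays was left out, with adjusted p between 0.0507 and 0.0814.

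The members of miR-106b-25 overlapped widely between adult and old females. The median of miR-106b was 2.16 in adults (1.67 to 2.89) and 2.10 in old females (1.83 to 3.49), that of miR-93 was 0.771 and 0.741, and that of miR-25 was 2.17 and 2.04. No old female was below the lowest adult for any of the 3. The highest 2 old values of miR-106b, 3.09 and 3.49, were those of the 2 arrays that stood apart, on which miR-19b was at 9.07 and 9.42 and miR-20a at 3.58 and 3.07, the reverse of the other 3 animals of that age (miR-106b 1.89 to 2.37, miR-19b 16.7 to 18.1, miR-20a 4.98 to 5.35).

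Without these 2 arrays, 5 members of miR-17-92 still fell in old females, by 0.43 for miR-92a (limma adjusted p = 5.98e-05), 0.66 for miR-18a (0.00152), 0.28 for miR-17-5p (0.00133), 0.26 for miR-19b (0.00211) and 0.23 for miR-20a (0.00748). For miR-19a the difference was then -0.23 and did not pass (limma adjusted p = 0.143). The members of miR-106b-25 did not pass either, with -0.08 for miR-106b (limma adjusted p = 0.386), -0.11 for miR-93 (0.389) and -0.15 for miR-25 (0.181). Within the 4 scans that held both age classes, old females were lower in 4 of 4 for miR-17-5p, miR-18a, miR-19b and miR-92a, with differences from -0.57 to -0.12 for miR-92a, in 3 of 4 for miR-19a and in 2 of 4 for miR-20a. On the 2 probes that the array holds for each member, old females were lower for 12 of 12 probes of miR-17-92, with ratios of the old to the adult median between 0.711 and 0.894, and for 6 of 6 of miR-106b-25, with ratios between 0.853 and 0.992. The calls were lost for all 6 members when the percentile covered every miRNA on the array (0 passed) and for 4 of them after normexp background correction (2 passed), although the direction stayed downward under each setting. Leaving out scan 3 left 3 calls (miR-17-5p, miR-18a and miR-92a), and leaving out scan 4 left 2 (miR-17-5p and miR-92a).

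Markers of other cell types were measured over the same comparison. In old females 2 of 5 leukocyte markers passed as higher (miR-142-3p by 0.44 and miR-142-5p by 0.54), and the summed level of the 5 ran from 9.25 to 19.8 in adults (median 14.7) and from 14.5 to 37.2 in old females (median 15.8). Without the 2 arrays that stood apart it ran from 14.5 to 17.4 in old females, and 0 of 5 passed (0.25 for miR-142-3p and 0.40 for miR-142-5p). The erythroid miR-451 was higher by 0.48 (limma adjusted p = 0.0342) while miR-144 did not pass, with a summed level of 4.17 to 19.1 in adults and 6.45 to 17.5 in old females. The 3 hepatocyte markers did not pass, with differences from 0.07 to 0.15 and a summed level of 653 to 1289 in adults and 691 to 1388 in old females. Without the 2 arrays miR-194 passed as higher (0.32, limma adjusted p = 0.00776).

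Of 5 muscle markers 2 were lower in old females, miR-1 (-3.42, limma adjusted p = 0.0163) and miR-133b (-3.64, limma adjusted p = 0.0244), found on 28 and 35 of the 88 arrays. The other arrays lie at the floor, so the size of these 2 differences depends on it. The summed level of the 5 muscle markers ran from 0 to 21.2 in adults (median 0.436) and from 0 to 0.275 in old females (median 0.132). None of the 5 biliary markers passed, with a median difference of -0.46, and none of the 4 markers of endothelium and mesenchyme, with a median of -0.06. The hepatocyte, erythroid and leukocyte markers were detected on every array. The part of these cell types in the fall of the miR-17-92 members was not tested.

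In males fewer members passed. Old males had lower miR-92a, miR-19b and miR-25, beside 4.78% of the miRNAs, and no member was higher, beside 5.73%. None reached 1.5-fold, which 5.10% of the miRNAs did. The count of 3 was 1 with the percentile over the miRNAs detected on every array, 0 with that over all miRNAs, 0 after normexp correction, 1 with the mean processed signal and 0 without scan 3. For miR-92a the adult males ranged from 9.55 to 14.6 (median 11.6) and the old from 6.11 to 13.2 (median 10.003), with 6 of 14 old males below the lowest adult (-0.28 ± 0.08, limma adjusted p = 0.0112). For miR-25 the adults ranged from 2.03 to 2.96 (median 2.39) and the old from 1.91 to 2.50 (median 2.17), with 12 of 14 below the adult median (-0.16 ± 0.05, limma adjusted p = 0.0187). For miR-19b (-0.24 ± 0.07, limma adjusted p = 0.0207) 11 of 14 were below the adult median of 20.1, and the call was lost without 78-week male replicate 6 (-0.20, limma adjusted p = 0.0528). The other 6 members had differences from -0.32 (miR-18a, with 6 undetected arrays) to -0.07 (miR-106b). By probe, old males were lower for 12 of 12 of miR-17-92 and 6 of 6 of miR-106b-25. The ratios of the old to the adult median were 0.763 to 0.967 and 0.813 to 0.936. In old males 4 of the 5 leukocyte markers passed as higher, with a summed level of 13.2 to 30.5 against 11.6 to 18.6 in adults. Of the 4 markers of endothelium and mesenchyme, miR-126 (-0.23, limma adjusted p = 0.0013) and miR-143 (-0.31, limma adjusted p = 0.0148) were lower, with a summed level of 21.1 to 32.9 in old and 24.5 to 35.6 in adult males. Of the 5 biliary markers miR-200b was lower (-0.79, limma adjusted p = 0.0112). The part of these cell types in the members' differences was not tested.

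Whether the sexes differed in these steps was tested directly. For the change from adult to old, 0 of 9 members differed between the sexes at a limma adjusted p under 0.05, beside 1.59% of all miRNAs. At an unadjusted p under 0.05 only miR-20a did, with a difference of 0.22 ± 0.10. With the percentile over the miRNAs detected on every array, 2 of 9 passed, miR-20a (0.40 more in males) and miR-92a (0.38), each with a limma adjusted p of 0.0136. With the values as used, the larger number of calls in females is thus not shown to be a difference between the sexes. For the change from 2 weeks to adult, 2 of 9 differed, beside 27.1%, namely miR-25 (0.47 ± 0.13 more in males, limma adjusted p = 0.00509) and miR-92a (0.47 ± 0.16, limma adjusted p = 0.0226). Neither passed when the percentile was taken over other sets of miRNAs.

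At single ages no member differed between males and females by 1.5-fold with a limma adjusted p under 0.05, a rule that called 6.09% of the 2826 tests over the 9 ages. With other percentiles 3 tests of members passed this rule (miRNAs detected everywhere) or 7 (all miRNAs), and miR-92a at 52 weeks was the one that passed with both. By adjusted p alone, 9 tests of members passed, beside 8.63%. At 2 weeks 6 members were lower in males (miR-17-5p, miR-20a, miR-92a and the 3 of miR-106b-25), by 0.29 to 0.46, beside 31.2% of miRNAs in either direction, and for all of these but miR-20a the sign turned when the percentile was taken over the miRNAs detected everywhere, with none passing. The other 3 tests were of miR-17-5p at 15 weeks, miR-20a at 8 weeks and miR-92a at 52 weeks. At 15 weeks miR-17-5p was at 0.851, 0.874, 0.958, 1 and 1.01 in females and at the male values given above, with no overlap (-0.50 ± 0.11, 1.41-fold, limma adjusted p = 0.000493), and it was -0.69 with a percentile of the miRNAs detected everywhere (limma adjusted p = 5.19e-05), but a percentile of all miRNAs turned it to 0.24, which did not pass. At 52 weeks miR-92a was at 5.62, 7.76, 8.10, 8.77 and 9.83 in females and at 9.34, 10.6, 11.6, 12.2 and 13.2 in males (0.52 ± 0.14, limma adjusted p = 0.00877), where 1 female exceeded the lowest male. This difference was 0.65 (limma adjusted p = 2.77e-06) with a percentile of the miRNAs detected everywhere and 1.45 (limma adjusted p = 0.0298) with one of all miRNAs. At 8 weeks miR-20a was at 5.73, 5.77, 5.79, 5.99 and 7.08 in females and at 3.79, 4.50, 4.81, 4.89 and 5.02 in males, with no overlap (-0.40 ± 0.13, limma adjusted p = 0.0385), and here too a percentile of all miRNAs turned the difference, to 0.99 (limma adjusted p = 0.0605).

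A difference taken within an array does not depend on how the array is scaled, so it describes the clusters relative to each other without the ambiguity of the percentile. The mean log2 level of the 5 miR-17-92 members detected everywhere minus that of the 3 miR-106b-25 members is described here with no test, since only its change between groups has a meaning and the levels of different probes cannot be compared. In females it was 1.93 ± 0.05 (SD, n = 5) at 2 weeks, 1.69 ± 0.24 (n = 25) in adults and 1.37 ± 0.41 (n = 15) in old rats. In males it was 1.90 ± 0.03 (n = 5), 1.61 ± 0.17 (n = 24) and 1.52 ± 0.30 (n = 14). The young of both sexes lay above the adult median in 5 of 5 animals, and 12 of 15 old females and 9 of 14 old males lay below it.

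Within the adult class the course was not even. Female means were 1.48 at 5 weeks and 1.41 at 6 weeks, when miR-106b-25 was highest, and 1.80, 1.96 and 1.79 at 8, 15 and 21 weeks, before 1.63, 1.37 and 1.12 at 52, 78 and 104 weeks. Male means were 1.54, 1.54 and 1.49 at 5, 6 and 8 weeks, then 1.74, 1.72 and 1.75 at 15, 21 and 52 weeks, and 1.43 and 1.35 at 78 and 104 weeks. The standard deviation of the 104-week females, 0.63, was the widest of the 18 groups and rested on the 2 arrays that stood apart, at 0.449 and 0.420. Without them the old females were at 1.52 ± 0.17 (n = 13), with 10 of 13 below the adult median, and the change from adults was -0.17 in place of -0.31.

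**Figure D3:**
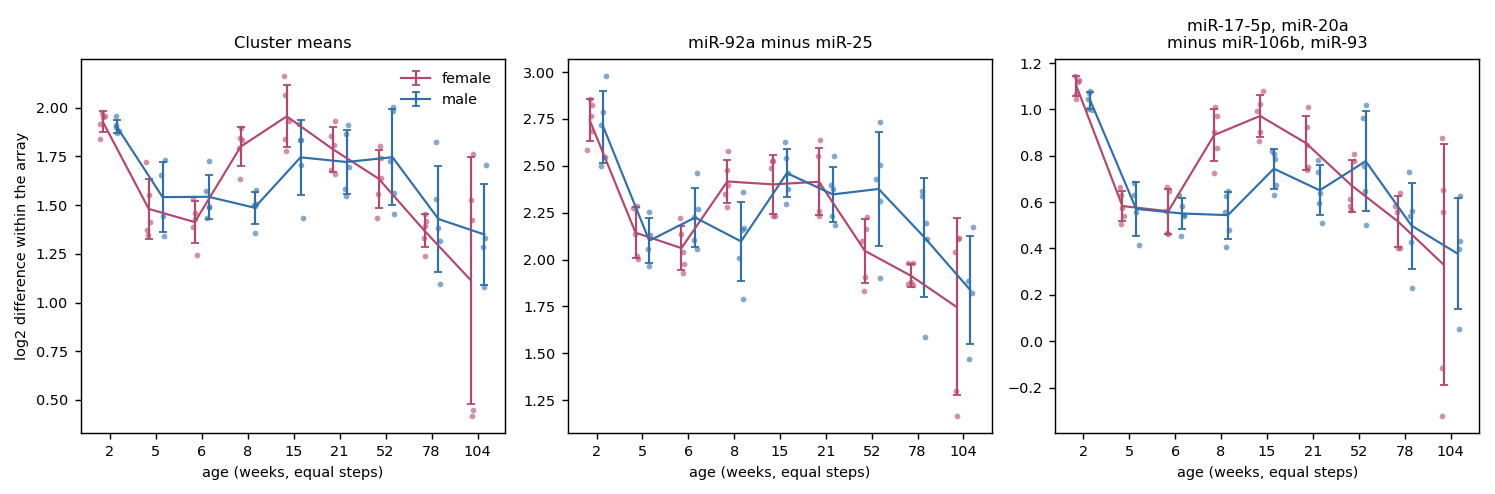
Within-array log2 difference (y axis) against age group (x axis) for the clusters as a whole, for miR-92a minus miR-25, and for miR-17-5p and miR-20a minus miR-106b and miR-93, with 1 point per array and the mean ± SD of each group. All 3 differences were high at 2 weeks, lower at 5 and 6 weeks, and lowest among the oldest groups in females.

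The same held for miRNAs with the same seed in different clusters. The difference of miR-92a and miR-25 was 2.74 ± 0.11 in young, 2.29 ± 0.20 in adult and 1.90 ± 0.30 in old females, and 15 of 15 old females were below the adult median. Without the 2 arrays it was 2.01 ± 0.13, with 13 of 13 below. In males it was 2.71 ± 0.19, 2.25 ± 0.20 and 2.13 ± 0.36, with 8 of 14 old males below the adult median. For the AAAGUGC seed, miR-17-5p and miR-20a minus miR-106b and miR-93 went from 1.10 ± 0.04 to 0.77 ± 0.19 and 0.51 ± 0.32 in females and from 1.04 ± 0.04 to 0.61 ± 0.12 and 0.56 ± 0.26 in males, where 5 of 5 young males were above the highest adult. Without the 2 arrays the old females were at 0.62 ± 0.14, with 10 of 13 below the adult median, a change from adults of -0.15 in place of -0.27. Within scans all 3 differences were lower in adults than in young rats in 3 of 3 scans in both sexes, and lower in old than in adult females in 3 of 4, the exception being scan 2 with 1 old female. Of the pairs within miR-17-92, the 2 with the closest sequences were set side by side in the same way, and from adult to old females they changed by -0.01 (miR-19a minus miR-19b) and 0.00 (miR-17-5p minus miR-20a). Without the 2 arrays these changes were 0.03 and -0.05. Other pairs of this cluster were not compared so, and their members fell by unequal steps, as miR-18a by 0.61 and miR-20a by 0.30. In old males miR-17-5p minus miR-20a was -0.13 from the adults, against -0.09 between the clusters. Pairs of 1 cluster were not steady from young to adult, since miR-17-5p minus miR-20a was higher in the young by 0.23 in females and 0.48 in males, and miR-19a minus miR-19b was -0.39 and -0.25 in the young relative to adults, against 0.24 and 0.29 between the clusters.

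Animals of 1 group also varied in step within clusters for most pairs of members. Over the 88 arrays, after the group means were taken off, the correlations between 2 members of miR-17-92 ran from 0.14 to 0.84 (10 pairs, median 0.50), with miR-20a and miR-19b the closest, and those between members of miR-106b-25 from 0.52 to 0.77 (3 pairs, median 0.63). Between members of different clusters they ran from -0.23 to 0.59 (15 pairs, median 0.15), against a median of 0.20 over 4465 pairs of other miRNAs detected everywhere. The highest of the 15 was that of miR-17-5p with miR-93, which differ at 4 of 23 bases. Within its own cluster the highest for miR-17-5p was 0.51, with miR-19b. For miR-92a the values with miR-17-5p (0.16) and miR-19a (0.14) lay below the median of the other miRNAs. All values of an array share 1 scaling factor, 1 RNA sample and 1 slide, and these correlations are descriptions.

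Over the 18 group means, the miRNA detected everywhere whose course was most like the mean of miR-17-92 was miR-20b-5p of the X chromosome cluster (Pearson's r = 0.88), followed by the endothelial miR-126 (0.55), miR-322 (0.44), miR-181a (0.43) and miR-27b (0.42), where the median of the 95 candidates was -0.07. For miR-106b-25 they were miR-15b (0.89), let-7i (0.77), miR-345-5p (0.69), miR-16 (0.66) and miR-130a (0.57), with a median of 0.21. The means of the 2 clusters correlated with each other at 0.21. In old females miR-20b-5p was lower by 0.21 (limma adjusted p = 0.00251), and in adult males it was higher than at 2 weeks by 0.24 (limma adjusted p = 0.0138).

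Of the other strands of the same hairpins, usually degraded, 10 were on the array and 3 were detected at all. The strand miR-20a* was found on 32 arrays, 9 of the 10 young ones among them, and was lower in adult females by 1.27 on the log2 scale with undetected arrays at the floor (limma adjusted p = 0.00511). The strand miR-19b-1* was found on 7 arrays, 5 of them young, so that nearly all other arrays lie at the floor and no difference is given. The strand miR-17-1-3p was found on 1 array, from a young rat. Of the other miRNAs with the AUUGCAC seed, miR-32 was detected on 55 arrays and miR-363 on 4, while the other strand of miR-32, miR-32*, was detected on 17, and none of these passed between age classes.

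**Figure D4:**
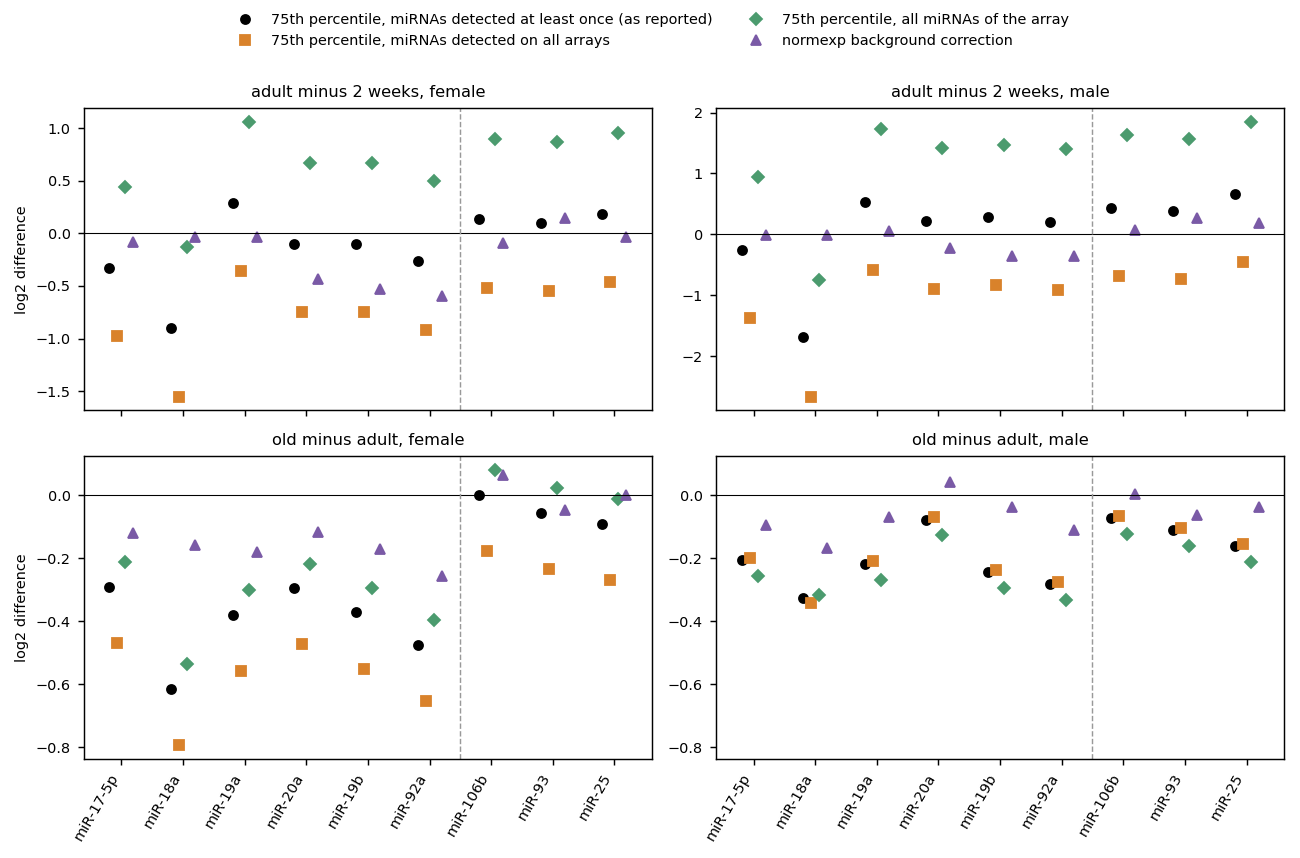
Log2 differences (y axis) of the 9 members (x axis) in 4 comparisons, with marker shape and color for the 4 settings of the scaling or background correction. The falls of the miR-17-92 members in old females keep their direction, while adult minus 2 weeks moves from below 0 to above it with the set of miRNAs behind the percentile, other than for miR-18a.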

How the data were processed

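Total RNA from liver tissue of 88 rats was hybridized to single-color Agilent rat miRNA arrays. The authors deposited Feature Extraction 10.7.3.1 output, in which total gene signals are background-subtracted intensity values with 0.1 for undetected miRNAs, and a table of ratio values, the signal over the array's 75th percentile. Of 786 detected member values, 0 differed from that deposited table by over 0.01 percent.

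Signals were divided by the value of rank 236 of the 314 expressed miRNAs (undetected as 1.84), undetected values set to 0.01202, and log2 taken. Models were fitted with limma 3.58.1 in R 4.3.3 (lmFit, eBayes) across the 314 miRNAs with Benjamini-Hochberg adjustment at 0.05, and with 1.5-fold where stated, age within each sex and sex over all 88 arrays. The models were tested on simulated data. Figures and descriptions used Python 3.11.15 (pandas 2.3.3, matplotlib 3.10.9). The sample labels do not give the processing batches that the study describes. In their place stood 5 scans, parted by gaps over 8 hours, of which scan 1 held 1 array. All 9 members are named, with fixed lists of related miRNAs and cell markers and, per cluster, the 5 most alike miRNAs. The members, lists and tests were chosen with earlier results of these data known. Replicate numbers were not taken to pair animals (17 of 33 same-numbered male and female pairs had residual correlations above 0.1). Alternatives covered scaling, background, detection, blocks, scans and single arrays. miR-106a and miR-18b were not analysed here.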

Additional observations from a re-analysis of the deposited data

Results flagged for a closer look

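Among the 162 combinations of member and group, 19 had 1 array at a distance from the rest of its group that chance gives in about 1 of 20 groups. The array of 2-week male 3 lay that far below its group for 5 members, with miR-17-5p at 0.715 (others 0.983 to 1.08), miR-18a at 0.307 (0.506 to 0.580), miR-19b at 12.8 (17.1 to 18.8), miR-93 at 0.410 (0.616 to 0.697) and miR-25 at 1.33 (1.57 to 1.62). It was also the lowest for miR-19a, at 1.53 (1.93 to 2.40), at a smaller distance. The array of 2-week female 4 was lowest for miR-17-5p at 0.926 (1.18 to 1.28) and for miR-93 at 0.587 (0.749 to 0.809).

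For miR-18a the arrays of males 15-week 2, 52-week 1 and 8-week 5 had no detected signal and lie at the floor of 0.01202, and that of 5-week female 6 was at 0.231 (others 0.381 to 0.466). Further low values were miR-17-5p in 104-week female 8 at 0.635 (0.800 to 0.877) and in 21-week male 4 at 0.612 (0.695 to 0.720), and miR-92a in 21-week female 6 at 7.58 (10.96 to 12.5) and in 78-week male 6 at 6.59 (9.63 to 10.8). High values were miR-19a in 78-week male 5 at 3.65 (1.82 to 2.18), miR-20a in 52-week female 8 at 5.88 (4.65 to 4.94) and in 8-week female 4 at 7.08 (5.73 to 5.99), and miR-106b in 104-week male 2 at 2.80 (2.13 to 2.21).

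The change from 2 weeks to adult differed between the sexes for miR-25 (0.47 ± 0.13, limma adjusted p = 0.00509) and miR-92a (0.47 ± 0.16, limma adjusted p = 0.0226). For miR-25 all 5 young males were below the lowest adult male, while the 5 young females lay within the adult female range.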

How the results depend on the processing

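Counts of members are given in the order of the report's comparisons, and their values as reported are 5 (age, females), 6 (age, males), 4 and 3 (from 5 weeks on, females and males), 3 and 5 (2 weeks to adult), 6 and 3 (adult to old), 0 (sex at single ages), 0 (sex difference in the change from adult to old) and 2 (the same from 2 weeks to adult). With the percentile over the miRNAs detected on every array they changed to 9 for age in females, 9 and 8 from 5 weeks on, 8 and 9 from 2 weeks to adult, 1 from adult to old in males, 3 for sex, 2 for the sex difference to old age and 0 for that from 2 weeks. With the percentile over all miRNAs, 0 and 0 passed from 5 weeks on, 8 from 2 weeks to adult in males, 0 and 0 from adult to old, 7 for sex and 0 for the sex difference from 2 weeks. After normexp correction they were 0 for age in males, 2 and 0 from 5 weeks on, 1 from 2 weeks to adult in males, 2 and 0 from adult to old, 1 for sex and 0 for the sex difference from 2 weeks. With the mean processed signal, 1 passed from adult to old in males and 1 for the sex difference from 2 weeks, and with a raw minimum for undetected miRNAs, 1 for sex. Chosen after the data were seen, leaving out whole scans gave 1 for sex and 1 for the sex difference from 2 weeks without scan 2. Without scan 3 it gave 3 for age in males, 1 and 1 from 5 weeks on, 3 from 2 weeks in males, 3 and 0 to old age and 1 for the sex difference from 2 weeks. Without scan 4 it gave 0 from 5 weeks on in females, 3 from 2 weeks in males, 2 and 1 to old age, 2 for sex and 1 for the sex difference from 2 weeks. Without scan 5, and without the 17 arrays with newer miRNA names, 3 passed from 2 weeks in males and 1 to old age in males.

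Directions turned as follows for differences that passed as reported or under the alternative (between the sexes, with 1.5-fold). With the percentile over the miRNAs detected on every array, adult minus 2 weeks in females became -0.52 for rno-miR-106b, -0.46 for rno-miR-25 and -0.55 for rno-miR-93, and in males -0.68 for rno-miR-106b, -0.58 for rno-miR-19a, -0.83 for rno-miR-19b, -0.89 for rno-miR-20a, -0.46 for rno-miR-25, -0.91 for rno-miR-92a and -0.73 for rno-miR-93. With the percentile over all miRNAs it became 0.44 for rno-miR-17-5p and 0.50 for rno-miR-92a in females and 0.94 for rno-miR-17-5p in males, and male minus female at 8 weeks became 1.14 for rno-miR-17-5p, 1.23 for rno-miR-19b and 1.25 for rno-miR-92a. After normexp correction, adult minus 2 weeks in males became -0.35 for rno-miR-19b. Of the sex differences that passed by adjusted p alone, the percentile over the miRNAs detected on every array turned 5 at 2 weeks (0.04 to 0.11), and that over all miRNAs turned miR-20a at 8 weeks (0.99) and miR-17-5p at 15 weeks (0.24). With these included, further differences of members had the other sign in 31 comparisons with each of these percentiles, 41 after normexp correction and 10 with the mean processed signal, among them adult minus 2 weeks in females for miR-19a (-0.36, percentile over the miRNAs detected on every array) and for miR-19b and miR-20a (0.67 each, over all miRNAs). The causes were not tested beyond the shift of the median described in the report.

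Leaving out 1 array at a time gave counts from 4 to 5 and 6 to 7 for age, 3 to 5 and 2 to 3 from 5 weeks on, 2 to 3 and 3 to 7 from 2 weeks to adult, 5 to 6 and 2 to 3 to old age, 0 to 1 for sex, and 0 and 2 to 3 for the sex differences. The 1 for sex was miR-92a at 52 weeks without female 8 (0.60) or male 10 (0.59), or miR-18a at 21 weeks without male 1, 3 or 4 (-2.03, -2.16 and -1.99). The count of 7 members from 2 weeks to adult in males came without 5-week male 4 or 6 or without 78-week male 6. With the replicate number as a block, 5 of the 6 falls in old females passed (miR-19a did not), and the block changed no other call. Blocking on scan or slide, the deposited table and the methods' t-test moved no count by over 1.5 times. Among the single differences of members, the scan block added 2 calls and lost 1, and the slide block added 2. Signal over background limits miR-18a most, since it was undetected on 6 arrays.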
